A study of Homo sapiens with 9 samples.

Results

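The immediate-early response genes were followed in OVCAR5, a human cell line that the study uses as ovarian cancer cells. The 31 members were taken by symbol (FOS, FOSB, FOSL1, JUN, JUNB and ATF3 of the AP-1 group, EGR1, EGR2 and EGR3, SRF, KLF2, KLF4, KLF6, KLF10 and MYC, NR4A1, NR4A2 and NR4A3, DUSP1, DUSP2, DUSP4, DUSP5 and DUSP6, IER2, IER3 and IER5, ZFP36, BTG2, GADD45A, GADD45B and PPP1R15A) and matched by Ensembl identifier to a table of 60649 identifiers. A filter on low counts kept 19674 identifiers for testing, and 29 of the 31 members were among them. EGR3 and DUSP2 were not tested.

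Immediate-early genes are transcribed within minutes of a growth factor, serum or stress signal, without new protein synthesis. Kinases of the MAPK pathway act on factors already bound at their promoters, such as SRF with its ETS-domain partners, and the transcripts are decayed quickly afterwards. Many of the products are transcription factors (AP-1, EGR, KLF, NR4A), while others, such as the dual-specificity phosphatases encoded by the DUSP genes, switch the MAP kinases off again.

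Stable lines had been made by lentiviral transduction followed by puromycin selection, and RNA was taken from the expanded cells without any stimulus named in the labels. Per the labels, the 9 libraries fell into 3 groups of 3: NC, described as parental control cells, and SM2 and SM4, described as METTL3-knockdown cells. METTL3 is the methyltransferase that places N6-methyladenosine on RNA. In the study's methods the controls carry a control hairpin and the knockdowns 1 of a pair of METTL3 hairpins, the labels do not say which hairpin is SM2 or SM4, and a source field gives the SM4 libraries other OVCAR names although the cell line field reads OVCAR5 throughout.

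Total counts were 44103272 to 63693728 per library, so that 1 CPM (a count scaled to library size) stood for 44.1 to 63.7 counts. The targeted gene went against the labels: METTL3 was at 36.3, 34.4 and 36.6 CPM in the libraries labelled NC, at 37.1, 39.8 and 40.0 in those labelled SM2 and at 60.6, 57.5 and 62.4 in those labelled SM4. It was higher in SM4 than in NC (log2 fold change 0.75, SE 0.054, adjusted p = 2.21e-09) and its difference between SM2 and NC missed the threshold (0.12, adjusted p = 0.12). It was also higher in SM4 than in SM2 (0.63, SE 0.054, adjusted p = 7.46e-08). A control in SM4 and knockdowns in NC and SM2 would give this order of METTL3, and whether the names NC and SM4 were exchanged cannot be settled from the labels. Every direction given here is between libraries as labelled and is not to be read as an effect of METTL3 knockdown. Under such an exchange the differences of SM4 from NC and from SM2 would be those of control from knockdown, with the opposite sign for knockdown over control. The difference of SM2 from NC would then lie between knockdowns, with no control in it. Epithelial markers were high in every library (8 keratin, junction and mucin genes summing to 11399 to 13316 CPM), and of 5 ovarian serous markers PAX8 was at 7.90 to 9.57 CPM, MUC16 had group means of 8.40 in NC, 23.4 in SM2 and 11.0 in SM4, and WT1, ESR1 and SOX17 were at or below 0.208 CPM. Among 10 markers of leukocytes, fibroblasts and endothelium, whose sum was 32.9 to 50.1 CPM, PTPRC, CD3E and DCN were at 0 in 7, 8 and 7 libraries, COL1A1 had group means of 22.9 to 24.1 CPM, and PECAM1 and CD14 had group means of 5.48 and 5.76 in NC, 8.23 and 8.48 in SM2 and 13.7 and 10.3 in SM4, and the part of these shifts in the results was not tested. SM2 replicate 3 stood apart from the other SM2 libraries (chi-square per degree of freedom 16.7 and 13.8, against 4.21 to 6.04 in the other within-group pairs). SM4 replicate 2 was the highest of its group in 19 of 29 tested members (37.3% of all tested genes). SM4 replicate 1 was the lowest of its group in 16 of 29 (33.1% of all tested genes).

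Across the members the differences were modest and did not run in 1 direction. Comparing SM2 with NC, 11 of 29 tested members rose and 3 fell at an adjusted p below 0.05 in the edgeR quasi-likelihood test, beside 22.3% of all tested genes called (12.0% higher, 10.3% lower). Comparing SM4 with NC, 3 rose and 7 fell, beside 21.2% of all genes (11.0% higher, 10.2% lower). Of the members in SM4 set against SM2, DUSP6 alone rose and 11 fell, beside 12.8% of all genes (6.04% higher, 6.76% lower). Libraries of the groups compared did not overlap for 12 members higher and 4 lower, 4 higher and 8 lower, and 4 higher and 15 lower in the same order, where 35.2%, 38.4% and 28.3% of all tested genes did not. Without SM2 replicate 3, the member counts were 9 higher and 3 lower (22.9% of all genes called), 3 and 7 (25.9%), and 2 and 10 (13.6%). Among the 20 members with a mean of at least 10 CPM, 11, 8 and 10 were called in the 3 comparisons, beside 32.4%, 31.1% and 19.9% of the 9841 genes at that level. The comparisons against NC share the NC libraries, and those with SM2 share the SM2 libraries, so their counts are not separate pieces of evidence.

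The tested members had a median log2 fold change of 0.15 for SM2 over NC, -0.003 for SM4 over NC and -0.17 for SM4 over SM2, while the median over all genes was -0.004, -0.001 and -0.0002. Of the 29 tested members, 28 had log2 fold changes below 1 in size in all 3 comparisons. SM2 held the highest group mean for 17 members, SM4 for 7 and NC for 5, and SM4 held the lowest for 14. FOS and KLF2 were higher in both SM2 and SM4 than in NC, FOSL1 and JUN were lower in both, and JUN alone passed the test in all 3 comparisons. Another 10 members passed against NC in SM2 alone and 6 in SM4 alone, which by itself does not test the difference between SM2 and SM4, 9 passed in no comparison, and no member was called in opposite directions against NC. The counts of these patterns and of the highest and lowest means have no share over all tested genes beside them. They describe the members and do not show that a pattern is particular to them. In bulk RNA, fewer cells expressing a gene and less RNA per cell cannot be told apart.

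**Figure D1:**
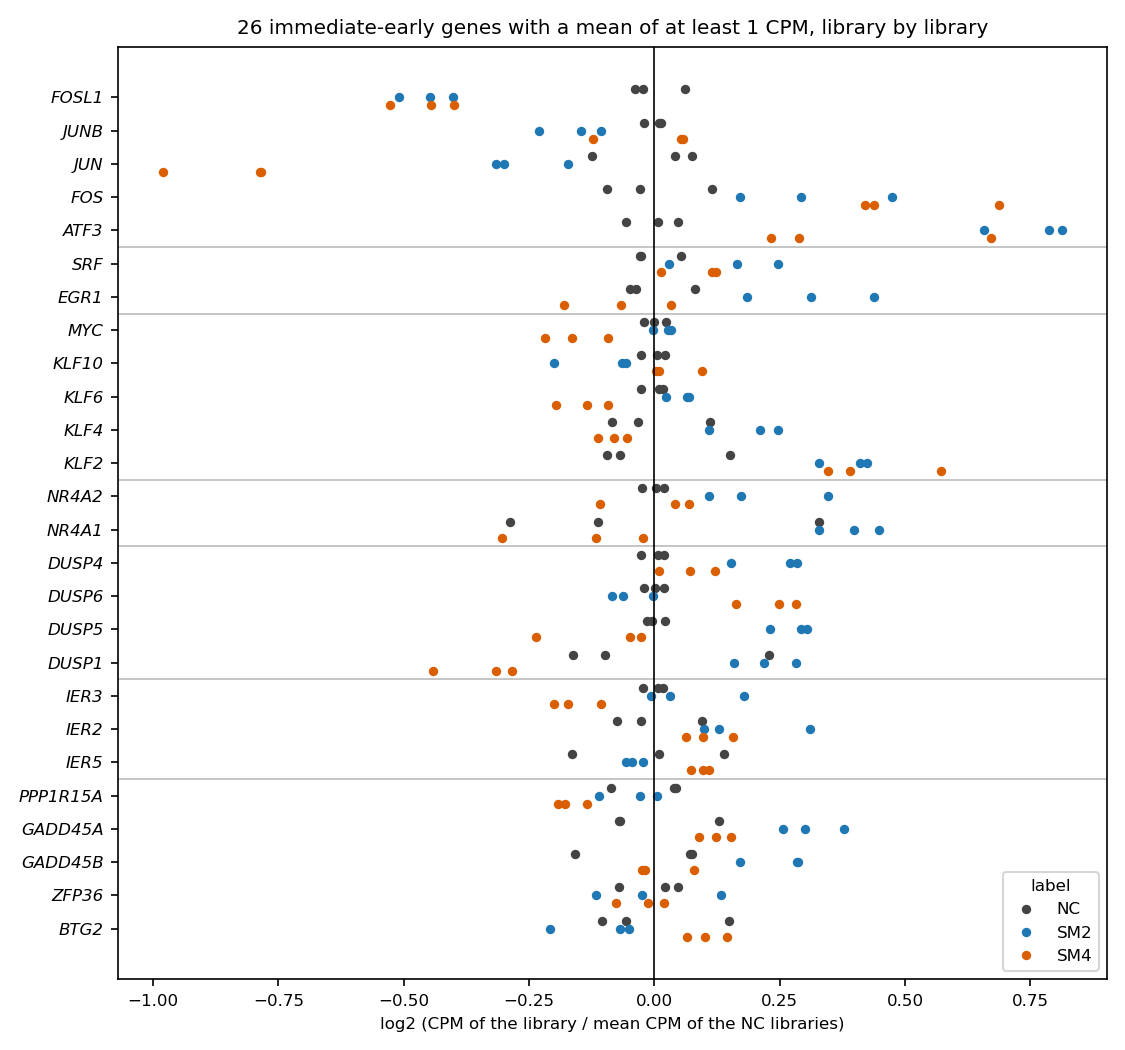
Each point is 1 library: the x axis gives log2 of its CPM over the mean CPM of the NC libraries, and rows are the 26 members with a mean of at least 1 CPM, grouped by family. SM2 and SM4 points lie to the left of NC for FOSL1 and JUN and to the right for FOS and KLF2. For DUSP5 and EGR1, SM2 lies to the right of NC, while SM4 lies to the left for DUSP5 and overlaps NC for EGR1. For DUSP1, SM2 overlaps NC and SM4 lies to the left.

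The levels of the members spanned from near 0 to the 350.8 CPM of FOSL1 in NC replicate 2. FOSL1, IER3, MYC and DUSP4 averaged at least 100 CPM over the libraries, 16 members lay between 10 and 100 CPM, 6 (FOS, ATF3, DUSP1, BTG2, NR4A1 and NR4A2) between 1 and 10, and 5 (FOSB, EGR2, EGR3, DUSP2 and NR4A3) below 1. Per kilobase of exon, the mean NC levels of the highly inducible genes FOS, FOSB, EGR2, EGR3 and NR4A3 were 1.70, 0.082, 0.067, 0.029 and 0.022 CPM per kb, while FOSL1 and IER3 were at 178.2 and 89.4. DUSP2, a nuclear phosphatase of MAP kinases, had 0 counts in NC replicate 1 and SM2 replicate 1, where 3 counts would have been 0.068 and 0.0652 CPM. Between libraries of 1 group the median coefficient of variation of the 26 members above 1 CPM was 4.62% in NC, 4.72% in SM2 and 4.26% in SM4.

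The members were compact genes. Their median genomic span was 5631 bases against 32683 for 13785 tested protein-coding genes, 26 of 31 had at most 4 exons in the transcript examined (83.9% against 20.9%), JUN, JUNB and IER5 had a single exon, and IER3 had the shortest span, at 1350 bases. The pentamer ATTTA, the core of AU-rich decay elements, stood at least 2 times in the 3′ untranslated region of 25 of 31 members (80.6%, against 56.0% of protein-coding genes). These features describe the list and were not tested against the response to the labels.

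RefSeq promoter windows (build GRCh38.p14, 250 bases before to 50 after the start) were matched for 22 of 31 members, 27 windows in all. Of these, 5 are shown, from textbook targets of the same signals, picked with their differing results known. The CArG box, the SRF site, was found in EGR1, SRF and EGR2 (11.1% of member windows and 1.29% of all 35116 windows). The EGR site GCGNGGGCG was found in 33.3% of member windows (9.43% of all), the AP-1/CRE-like TGANNTCA in 25.9% (11.5%) and the TATA motif TATAAA in 29.6% (11.5%). TGACGTCA, the full cAMP response element, was found in DUSP1 and PPP1R15A (7.41% against 1.85%), and each such match is also a TGANNTCA. TGANTCA and the ETS motif CCGGAAGT were found in no member window (7.71% and 4.14% of all windows). In the 17540 windows of tested genes the shares were 1.14% for the CArG box, 14.1% for GCGNGGGCG, 8.82% for TGANNTCA and 6.73% for TATAAA. They were 2.66% for TGACGTCA, 5.65% for TGANTCA and 6.76% for CCGGAAGT. Both strands were searched, and a match is a description of letters, not of binding. Sites further than 250 bases before the start were not searched, so a window without a match does not show that the gene lacks the site. Capitals mark the matches in the windows of FOS (chr14:75278578-75278877, plus strand), JUN (chr1:58783998-58784297, minus strand), EGR1 (chr5:138465229-138465528, plus strand), SRF (chr6:43171019-43171318, plus strand) and DUSP1 (chr5:172771146-172771445, minus strand), all written 5′ to 3′ on the strand of the gene.
FOS: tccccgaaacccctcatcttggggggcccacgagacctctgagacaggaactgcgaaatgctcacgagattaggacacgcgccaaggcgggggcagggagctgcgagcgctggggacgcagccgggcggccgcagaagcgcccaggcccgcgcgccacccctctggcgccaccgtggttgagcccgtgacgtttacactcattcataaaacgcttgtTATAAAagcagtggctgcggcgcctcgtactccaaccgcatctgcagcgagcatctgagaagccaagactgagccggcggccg
JUN: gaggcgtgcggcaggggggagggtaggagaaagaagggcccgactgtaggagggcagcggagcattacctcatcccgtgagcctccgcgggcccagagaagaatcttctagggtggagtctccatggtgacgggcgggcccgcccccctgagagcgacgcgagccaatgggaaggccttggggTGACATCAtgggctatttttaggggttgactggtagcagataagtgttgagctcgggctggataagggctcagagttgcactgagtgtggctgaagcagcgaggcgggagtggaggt
EGR1: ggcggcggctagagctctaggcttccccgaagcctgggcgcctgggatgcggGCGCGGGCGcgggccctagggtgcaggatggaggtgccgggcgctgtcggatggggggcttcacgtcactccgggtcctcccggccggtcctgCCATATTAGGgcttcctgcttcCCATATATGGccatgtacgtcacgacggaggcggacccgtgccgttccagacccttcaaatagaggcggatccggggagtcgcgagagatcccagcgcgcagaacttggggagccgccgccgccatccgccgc
SRF: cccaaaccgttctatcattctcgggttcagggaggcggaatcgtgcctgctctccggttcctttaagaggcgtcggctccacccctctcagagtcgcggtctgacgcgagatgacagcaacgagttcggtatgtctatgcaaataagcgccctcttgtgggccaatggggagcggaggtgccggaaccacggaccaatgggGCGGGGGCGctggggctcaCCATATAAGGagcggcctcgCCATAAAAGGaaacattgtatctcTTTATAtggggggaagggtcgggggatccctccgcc
DUSP1: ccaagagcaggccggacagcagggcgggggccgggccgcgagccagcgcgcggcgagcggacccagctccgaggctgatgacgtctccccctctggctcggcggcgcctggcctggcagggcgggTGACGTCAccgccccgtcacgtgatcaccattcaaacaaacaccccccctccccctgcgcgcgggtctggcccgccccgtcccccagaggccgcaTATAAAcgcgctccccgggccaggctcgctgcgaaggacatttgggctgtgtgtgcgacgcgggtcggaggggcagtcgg
Within these windows EGR1 and SRF each carry a pair of CArG boxes and 1 EGR site, FOS 1 TATAAA, JUN 1 TGANNTCA, and DUSP1 1 TGACGTCA and 1 TATAAA. The window of SRF also holds TATAAA on the other strand. Over NC, FOS and EGR1 rose in SM2, JUN fell, and SRF and DUSP1 were not called. Since these 5 genes were picked for differing results, their lack of a shared direction is not a finding.

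AP-1 is a dimer of a FOS-family and a JUN-family protein, and its strongest member here was FOSL1, which encodes FRA-1, a FOS-family protein of growing and migrating epithelial cancer cells. FOSL1 (chromosome 11, 65892049 to 65900573, minus strand; GRCh38 for this and all gene positions) was at 327.3, 350.8 and 330.9 CPM in NC, at 246.5, 254.6 and 236.3 in SM2 and at 233.4, 254.9 and 246.8 in SM4. Every SM2 and SM4 library lay below every NC library, and the SM2 and SM4 ranges overlapped. It fell by 0.45 on the log2 scale in SM2 (SE 0.046, adjusted p = 3.38e-07) and by 0.46 in SM4 (SE 0.046, adjusted p = 2.34e-07). SM4 and SM2 did not differ detectably (log2 fold change -0.005, SE 0.046, adjusted p = 0.967).

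JUN, the founding member of the JUN family, showed 3 separate levels. It (chromosome 1, 58776845 to 58784048, minus strand) was at 45.9, 47.0 and 40.9 CPM in NC, at 36.2, 39.6 and 35.8 in SM2 and at 22.6, 25.9 and 25.9 in SM4. No pair of groups overlapped. The log2 fold change was -0.26 in SM2 against NC (SE 0.067, adjusted p = 0.00706), -0.85 in SM4 against NC (SE 0.068, adjusted p = 1.17e-08) and -0.59 in SM4 against SM2 (SE 0.068, adjusted p = 4.27e-06). JUN, CREB5 and CCN1, the last pair described further on, are in a list that the study drew partly from these libraries under its own naming of control and knockdown, and that list is not used as evidence for any direction given here. Without NC replicate 2 the SM2 difference kept its sign and lost its call (-0.22, adjusted p = 0.055).

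JUNB, a JUN-family protein that can restrain JUN, was at 51.1, 52.2 and 52.3 CPM in NC, 44.2, 46.9 and 48.2 in SM2 and 47.6, 54.0 and 53.9 in SM4 (chromosome 19, 12791486 to 12793315, plus strand). The SM2 libraries were all below the NC libraries, by 0.16 on the log2 scale (SE 0.056, adjusted p = 0.0466), and SM4 spanned the NC range (log2 fold change -0.003, adjusted p = 0.983). Its call in SM2 was lost without any 1 of 7 libraries (the 3 NC libraries, SM2 replicates 1 and 2, and SM4 replicates 2 and 3, adjusted p 0.0524 to 0.154), and the sign in SM4 against NC turned in 7 of 19 alternative settings. With trends with gene length and GC content removed JUNB was lower in both, by 0.32 in SM2 and 0.13 in SM4 (adjusted p = 0.0492 for SM4), and its SM4 against SM2 value of 0.16 (adjusted p = 0.0734) passed the threshold in 6 alternatives. JUNB overlaps HOOK2 on the opposite strand, itself at 69.0 to 87.3 CPM, and whether strand was used in counting is not given in the sources used here.

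FOS, the prototype immediate-early gene, moved the other way at a low level. It (chromosome 14, 75278826 to 75282230, plus strand) was at 5.86, 5.08 and 5.31 CPM in NC, 6.63, 6.10 and 7.53 in SM2 and 7.34, 7.25 and 8.72 in SM4. NC lay below both other groups without overlap. It was higher by 0.52 on the log2 scale in SM4 against NC (SE 0.112, adjusted p = 0.00182) and by 0.32 in SM2 against NC (SE 0.114, adjusted p = 0.0481). The SM2 call was lost without any 1 of NC replicates 2 and 3, SM2 replicates 1 and 3 and SM4 replicates 1 and 2 (adjusted p 0.0521 to 0.177), and also in DESeq2 and 3 other settings (adjusted p 0.0518 to 0.0595).

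ATF3, a stress-induced bZIP factor that pairs with JUN proteins, rose from 1.44, 1.55 and 1.50 CPM in NC to 2.63, 2.58 and 2.36 in SM2 (log2 fold change 0.75, SE 0.175, adjusted p = 0.00331; chromosome 1, 212565334 to 212620777, plus strand). The SM4 libraries, at 1.83, 1.76 and 2.38, lay above NC without overlap and did not pass the test (0.40, SE 0.175, adjusted p = 0.117). FOSB, a close relative of FOS, was at 0.30 to 0.63 CPM over all libraries with fully overlapping groups. It overlaps ERCC1 on the opposite strand, which was at 38.5 to 45.1 CPM.

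**Figure D2:**
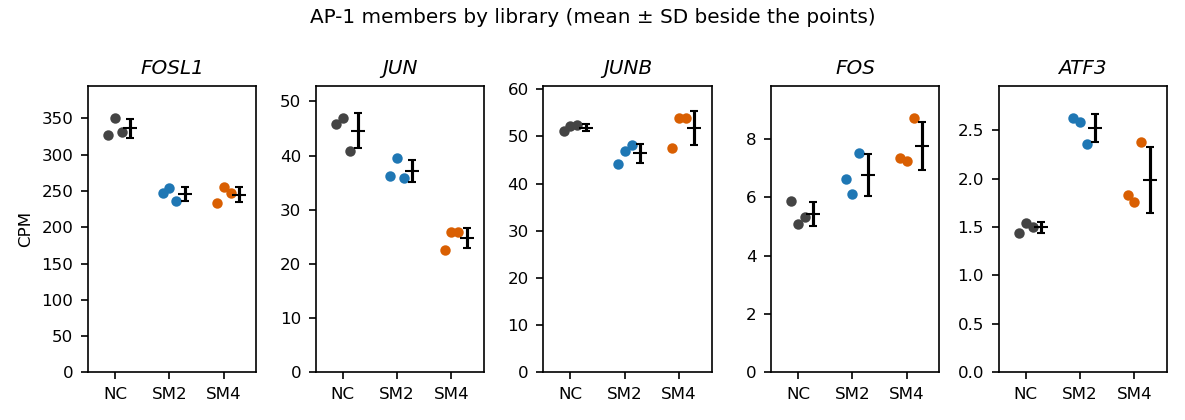
CPM of 5 AP-1 members in each library (points; y axes start at 0 and differ between panels), with the mean ± SD of each group of 3 beside them. JUN forms 3 separate levels, FOSL1 drops from 336.3 CPM in NC to 245.8 in SM2 and 245.0 in SM4, and FOS and ATF3 lie lowest in NC.

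Per kilobase of exon, which lets genes be compared, the FOS-family pool was mostly FOSL1. Its share was 80.8% ± 0.74 (SD, n = 3) in NC, 80.4% ± 0.86 in SM2 and 80.3% ± 0.47 in SM4. FOSL2, a FOS-family relative outside the member list, made up 18.3%, 18.3% and 18.1%, and FOS 0.773%, 1.31% and 1.51%. The pool as a whole was 220.4 ± 6.28 CPM per kb in NC, 162.1 ± 7.17 in SM2 and 161.6 ± 6.23 in SM4, so both groups had a smaller FOS-family pool with a like make-up.

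The JUN-family pool changed in make-up more than in size. It totalled 68.2 ± 1.04 CPM per kb in NC, 73.6 ± 2.91 in SM2 and 64.7 ± 3.01 in SM4. The share of JUN was 18.0% ± 1.09 in NC, 13.9% ± 0.87 in SM2 and 10.5% ± 0.32 in SM4, without overlap between groups. JUND, the JUN-family gene that is expressed at rest and is not a member here, held 40.4% ± 1.01, 51.6% ± 0.78 and 45.7% ± 1.38, and JUNB 41.6% ± 1.12, 34.5% ± 0.15 and 43.7% ± 1.06. These shares are descriptions, since a share falls when another gene of the pool rises.

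**Figure D3:**
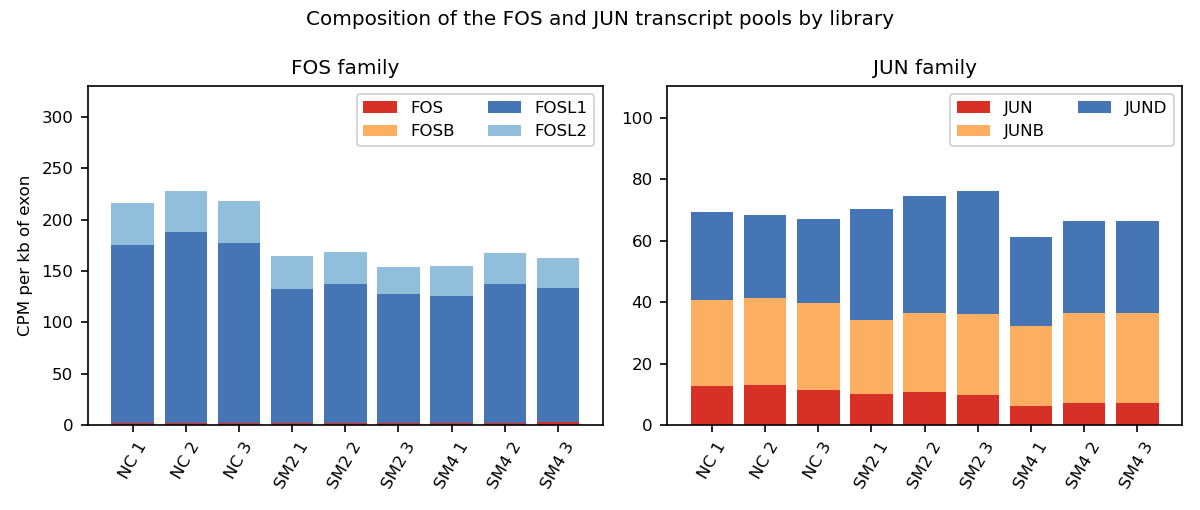
Stacked bars give CPM per kb of exon for the FOS family (left) and the JUN family (right) in each library, both axes from 0. FOSL1 fills about the same share of the FOS-family bar in all 9 libraries (79.5% to 81.7%), while the JUN segment shrinks from NC to SM2 to SM4.

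EGR1, a zinc-finger factor that answers growth factors through SRF sites, was raised in SM2 and not in SM4. EGR1 (chromosome 5, 138465479 to 138469303, plus strand) was at 18.5, 18.4 and 20.1 CPM in NC, 21.6, 25.7 and 23.6 in SM2 and 16.7, 19.4 and 18.1 in SM4. The SM2 libraries stood above both other groups, which overlapped. The log2 fold change was 0.32 in SM2 against NC (SE 0.077, adjusted p = 0.00463), -0.07 in SM4 against NC (SE 0.077, adjusted p = 0.598) and -0.39 in SM4 against SM2 (SE 0.076, adjusted p = 0.00151), and both calls held in all 19 alternatives run.

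EGR2, a relative of EGR1 best known from nerve and immune cells, ranged from 0.11 to 0.39 CPM, and EGR3, untested, from 0.03 to 0.26. At this depth no group difference could be seen in either. SRF, the factor that binds CArG boxes, was at 55.3, 55.4 and 58.5 CPM in NC, 66.9, 63.3 and 57.5 in SM2 and 56.9, 61.4 and 61.1 in SM4 (chromosome 6, 43171269 to 43181506, plus strand). The groups overlapped, and SRF missed the threshold in SM2 against NC (log2 fold change 0.15, SE 0.057, adjusted p = 0.0678), though without SM2 replicate 3 it passed (0.21, adjusted p = 0.00305). In SM4 against NC the value was 0.08 (adjusted p = 0.344).

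KLF2, a Krüppel-like factor with anti-proliferative and vascular roles, rose in both groups. KLF2 (chromosome 19, 16324826 to 16328685, plus strand) was at 25.2, 29.8 and 25.6 CPM in NC, 33.7, 35.7 and 36.0 in SM2 and 34.1, 39.9 and 35.2 in SM4. NC lay below both without overlap, by 0.39 on the log2 scale for SM2 (SE 0.072, adjusted p = 0.000432) and 0.44 for SM4 (SE 0.071, adjusted p = 0.000108). SM4 and SM2 did not differ detectably (0.05, adjusted p = 0.716).

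KLF4, a factor of epithelial differentiation, was at 48.8, 53.9 and 47.1 CPM in NC, 59.3, 57.8 and 53.9 in SM2 and 46.2, 48.1 and 47.2 in SM4 (chromosome 9, 107484852 to 107490482, minus strand). It was higher in SM2 than in NC, where SM2 replicate 3 and NC replicate 2 touched (log2 fold change 0.19, SE 0.057, adjusted p = 0.0192), and lower in SM4 than in SM2 (-0.27, adjusted p = 0.00233). Leaving out NC replicate 1 or 3 or SM2 replicate 1 or 2 lost the first call (adjusted p 0.0698 to 0.118). KLF4 missed the threshold in SM4 against NC (-0.08, adjusted p = 0.355).

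KLF6, a widely expressed relative, and MYC, the growth-promoting bHLH factor, both lay lowest in SM4. KLF6 was at 87.5, 90.1 and 89.7 CPM in NC, 93.2, 93.5 and 90.5 in SM2 and 81.2, 83.6 and 77.7 in SM4. It fell by 0.14 on the log2 scale in SM4 against NC (adjusted p = 0.0293) and by 0.19 against SM2 (adjusted p = 0.00592). The first call was lost without any of the 3 NC libraries or SM4 replicate 1 or 3 (adjusted p 0.0667 to 0.157) and with no filter on low counts (0.0794), and the second without SM4 replicate 3 (0.0525).

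MYC was at 117.1, 113.6 and 115.2 CPM in NC, 117.9, 117.5 and 115.1 in SM2 and 99.2, 108.2 and 102.9 in SM4. The SM4 libraries lay below both groups. It fell by 0.16 in SM4 against NC (SE 0.044, adjusted p = 0.0141) and by 0.18 against SM2 (adjusted p = 0.0104). Both calls were lost without SM4 replicate 1 (adjusted p 0.134 against NC and 0.115 against SM2). The call against NC was also lost when NC replicate 1 (0.08) or SM4 replicate 3 (0.0552) was left out. KLF10, induced by TGF-beta, was at 98.3 to 101.5 CPM in NC, 87.1 to 96.2 in SM2 and 100.3 to 106.8 in SM4 and was not called. Its SM4 against SM2 value of 0.14 (adjusted p = 0.059) passed the threshold in 7 alternatives.

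The NR4A genes encode orphan nuclear receptors whose activity follows their abundance. NR4A1 was at 5.48, 3.57 and 4.03 CPM in NC, 5.47, 5.74 and 5.94 in SM2 and 4.29, 4.02 and 3.53 in SM4 (chromosome 12, 52022832 to 52059507, plus strand). NC replicate 1 reached the SM2 range, while SM4 lay below SM2 without overlap. It was higher in SM2 than in NC (log2 fold change 0.40, SE 0.140, adjusted p = 0.0451) and lower in SM4 than in SM2 (-0.53, adjusted p = 0.014), and the SM4 against NC value was -0.13 (adjusted p = 0.595).

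The call of NR4A1 in SM2 against NC was lost without any 1 of NC replicates 2 and 3, SM2 replicates 2 and 3 and SM4 replicates 1 and 2 (adjusted p 0.0511 to 0.237) and in 4 other settings including DESeq2 (adjusted p 0.0527 to 0.114), and the call in SM4 against SM2 was lost without SM4 replicate 3 (0.0741). NR4A2, at 5.52 to 5.69 CPM in NC, 6.06 to 7.14 in SM2 and 5.21 to 5.89 in SM4, was not called. In NR4A3 the SM2 libraries (0.26, 0.27 and 0.23 CPM) stood above SM4 (0.10, 0.09 and 0 CPM, the last allowing up to 3 counts or 0.0591 CPM) and NC (0.09, 0.15 and 0.17), which is a difference of a few counts and did not pass the test (SM4 against SM2 adjusted p = 0.0589), although it did with length and GC trends removed (0.0421, or 0.0463 with the replicate block as well).

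The 4 tested dual-specificity phosphatases among the members, which remove phosphate from MAP kinases and are themselves induced by them, were all called between SM4 and SM2. In that comparison 3 of the 4 tested fell and DUSP6 rose, beside 12.8% of all tested genes called and 19.9% of those with a mean of at least 10 CPM. DUSP1 (chromosome 5, 172768096 to 172771195, minus strand), a nuclear phosphatase for JNK, p38 and ERK, was at 8.17, 7.82 and 10.2 CPM in NC, 9.76, 10.6 and 10.2 in SM2 and 7.02, 7.18 and 6.44 in SM4. SM4 lay below both other groups, by 0.56 on the log2 scale against SM2 (SE 0.104, adjusted p = 0.000783) and by 0.35 against NC (SE 0.105, adjusted p = 0.0211). NC replicate 3 and SM4 replicates 1 and 3 each ended the call against NC when left out (adjusted p 0.0539 to 0.181), without NC replicate 3 the fold change shrank to -0.21, and the SM2 against NC value (0.22, adjusted p = 0.148) passed the threshold without NC replicate 3 (0.35, adjusted p = 0.0213).

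DUSP5, a nuclear ERK phosphatase, and DUSP4, a nuclear phosphatase of ERK and JNK, were both highest in SM2. DUSP5 (chromosome 10, 110497907 to 110511533, plus strand) was at 60.8, 62.4 and 61.3 CPM in NC, 75.3, 72.1 and 75.9 in SM2 and 52.2, 60.4 and 59.5 in SM4. SM2 stood above both groups, with log2 fold changes of 0.28 against NC (SE 0.054, adjusted p = 0.000795) and, for SM4 against SM2, -0.38 (SE 0.054, adjusted p = 5.62e-05). SM4 against NC missed the threshold (-0.10, adjusted p = 0.216), and passed it when trends with gene length and GC content were removed (-0.14, adjusted p = 0.0335).

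DUSP4 was at 121.0, 123.9 and 124.8 CPM in NC, 148.6, 150.0 and 136.9 in SM2 and 124.1, 134.0 and 129.4 in SM4. It was higher in SM2 than in NC (log2 fold change 0.24, SE 0.047, adjusted p = 0.000826), lower in SM4 than in SM2 (-0.17, adjusted p = 0.0197) and not called in SM4 against NC (0.07, adjusted p = 0.356). Its SM4 against SM2 call was lost without SM2 replicate 1 or 2 or SM4 replicate 1 or 3 (adjusted p 0.059 to 0.167).

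DUSP6, the cytoplasmic phosphatase most specific for ERK, took the opposite course to the other 3. DUSP6 (chromosome 12, 89347235 to 89352501, minus strand) was at 83.5, 82.3 and 84.6 CPM in NC, 78.7, 80.0 and 83.3 in SM2 and 93.4, 101.6 and 99.2 in SM4. Only the SM4 libraries stood apart, with log2 fold changes of 0.23 against NC (SE 0.046, adjusted p = 0.000909) and 0.28 against SM2 (SE 0.046, adjusted p = 0.000239), and SM2 against NC was -0.05 (adjusted p = 0.514).

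**Figure D4:**
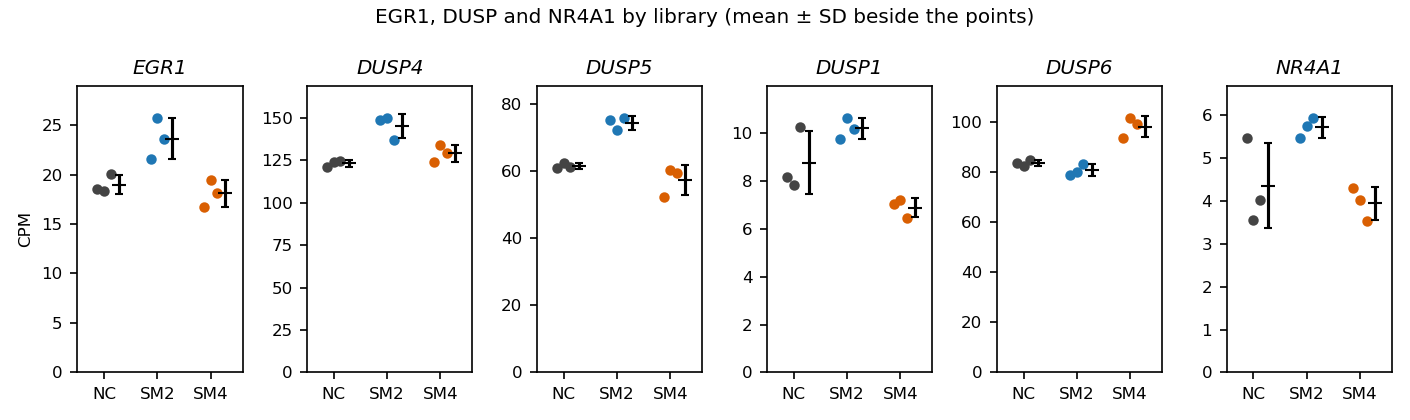
CPM of EGR1, 4 DUSP genes and NR4A1 in each library (points; y axes start at 0 and differ between panels), with the mean ± SD of each group of 3. SM2 is highest for EGR1, DUSP4, DUSP5, DUSP1 and NR4A1, and SM4 is highest for DUSP6, at 98.1 ± 4.22 CPM against 83.5 ± 1.13 in NC.

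The IER genes, short genes named for their early induction, changed little. IER3, a regulator of cell survival, was at 121.3, 122.1 and 118.7 CPM in NC, 120.1, 123.3 and 136.7 in SM2 and 105.0, 112.2 and 107.1 in SM4. SM4 lay below both groups, by 0.16 on the log2 scale against NC (adjusted p = 0.0258) and by 0.23 against SM2 (SE 0.05, adjusted p = 0.00333). NC replicates 1 and 2 and SM4 replicates 1 and 3 each ended the call against NC when left out (adjusted p 0.085 to 0.142).

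IER2 was at 39.2, 40.5 and 44.1 CPM in NC, 44.2, 45.2 and 51.2 in SM2 and 44.1, 46.0 and 43.2 in SM4. It rose in SM2 (log2 fold change 0.18, SE 0.062, adjusted p = 0.0395), although the call was lost without NC replicate 1 or 2, SM2 replicate 3 or any SM4 library (adjusted p 0.0501 to 0.185), with only the 6 libraries compared (0.0698) and when trends with length and GC content were removed (highest adjusted p 0.487). The value was 0.12 without SM2 replicate 3 and 0.055 with those trends removed. IER5 was not called, at 36.2 to 44.6 CPM in NC, 38.9 to 39.9 in SM2 and 42.6 to 43.7 in SM4.

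GADD45A and GADD45B, small stress sensors that act on MAP kinase kinase kinases and growth arrest, rose in SM2. GADD45A (chromosome 1, 67685201 to 67688334, plus strand) was at 25.6, 29.4 and 25.7 CPM in NC, 33.1, 32.1 and 35.0 in SM2 and 28.6, 29.9 and 29.3 in SM4. SM2 lay above both groups. Its log2 fold change was 0.31 in SM2 against NC (SE 0.064, adjusted p = 0.00108) and 0.12 in SM4 against NC (adjusted p = 0.2). The SM4 against SM2 value of -0.19 (adjusted p = 0.0528) passed the threshold in 4 alternatives, DESeq2 among them.

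GADD45B was at 22.4, 22.3 and 19.1 CPM in NC, 23.9, 25.9 and 25.9 in SM2 and 20.97, 22.5 and 20.9 in SM4. It was higher in SM2 than in NC (0.25, SE 0.071, adjusted p = 0.0142) and lower in SM4 than in SM2 (-0.24, adjusted p = 0.0317). The first call was lost without NC replicate 3 or SM2 replicate 2 (adjusted p 0.0593 and 0.108), the second without SM2 replicate 2 or 3 or SM4 replicate 1 or 3 (0.0503 to 0.13), and both when trends with length and GC content were removed (0.0705 and 0.0557).

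PPP1R15A encodes GADD34, the phosphatase subunit that ends the translational arrest of the integrated stress response. It was at 33.2, 33.1 and 30.3 CPM in NC, 32.3, 29.8 and 31.5 in SM2 and 28.5, 29.3 and 28.2 in SM4. SM4 lay below NC by 0.17 on the log2 scale (SE 0.059, adjusted p = 0.0469), a call that was lost without any 1 of NC replicates 1 and 2, SM2 replicate 2 and the 3 SM4 libraries (adjusted p 0.0566 to 0.174) and in 4 other settings, DESeq2 among them (0.0516 to 0.101). The mRNA-decay factor ZFP36 (20.8 to 24.7 CPM over all libraries) and the anti-proliferative gene BTG2 (5.15 to 6.59 CPM) were not called in any comparison.

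**Figure D5:**
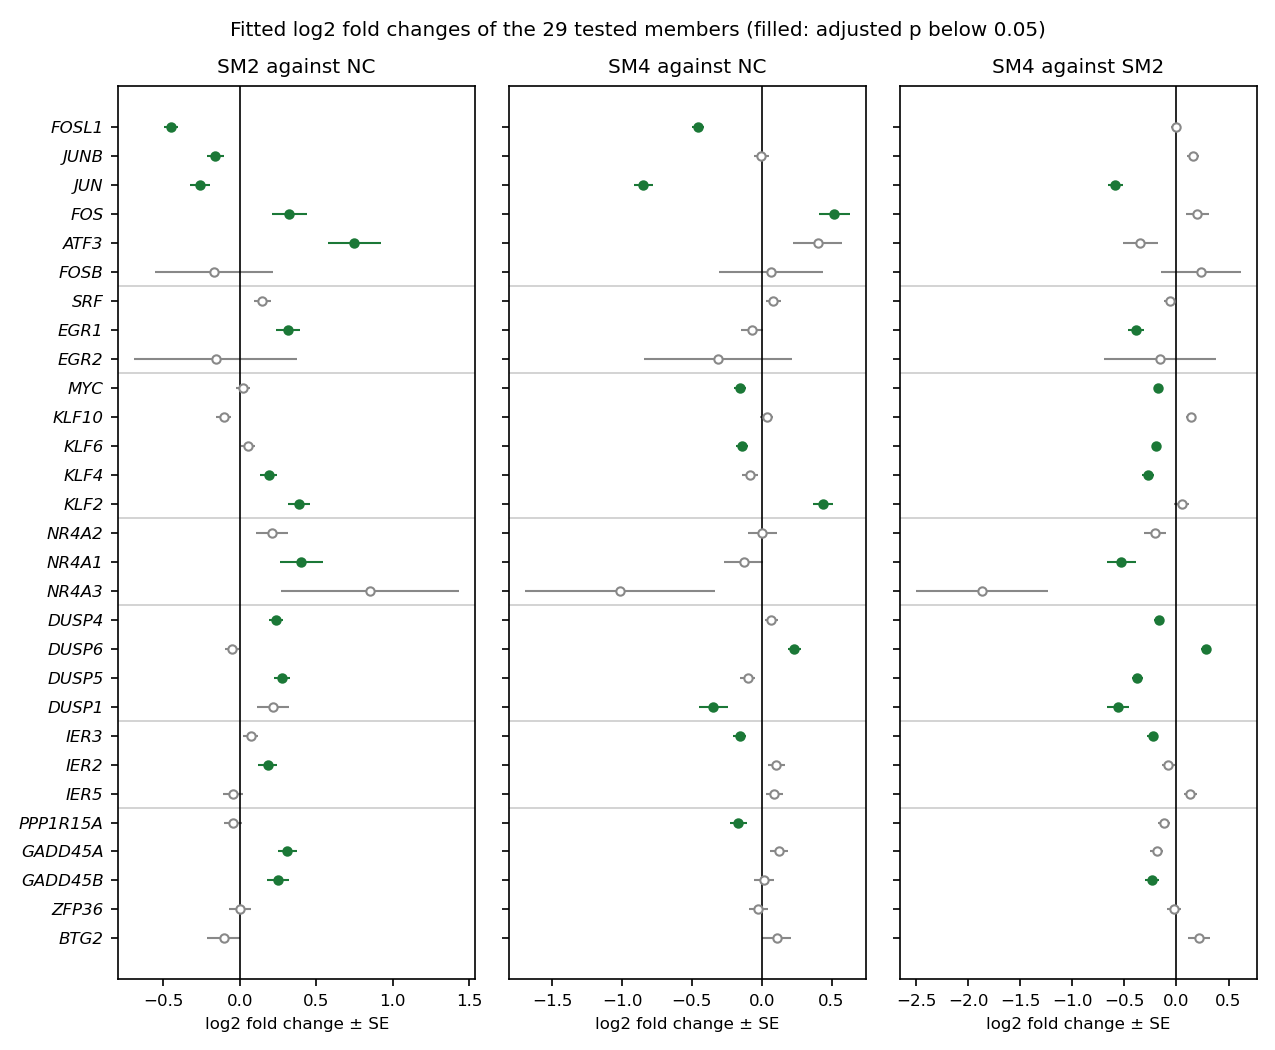
Fitted log2 fold changes (points) with SE (bars) for the 29 tested members in the 3 comparisons, filled green where the adjusted p is below 0.05; the x axes differ. The DUSP genes show filled points in both directions in SM4 against SM2, and the wide bars belong to FOSB, EGR2 and NR4A3, each below 1 CPM.

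Set side by side, the families did not share a direction. Of the 6 AP-1 members, 2 rose and 3 fell in SM2 against NC, and 1 rose and 2 fell in SM4 against NC. Among the 5 KLF and MYC genes, 2 rose in SM2 against NC, while 1 rose and 2 fell in SM4. Among the 4 tested DUSP genes, 2 rose in SM2, and in SM4 1 rose and 1 fell. The 3 EGR and SRF genes and the 3 NR4A genes each had 1 member higher in SM2 and none called in SM4 against NC. Of all tested genes, 22.3% were called in SM2 against NC and 21.2% in SM4 against NC. With so few genes in each family, the counts describe these genes and do not set a family apart from that share.

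In an order of the group means, 10 members ran SM2, NC, SM4 from highest to lowest (EGR1, IER3, KLF4, KLF6, MYC, DUSP1, DUSP5, ZFP36, NR4A1 and NR4A3) and 7 ran SM2, SM4, NC. The order NC, SM2, SM4 held for FOSL1, JUN, EGR2 and PPP1R15A, although for FOSL1 the means of SM2 and SM4 differed by less than their spread. How common each order was over all tested genes is not given here.

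Other genes of the same pathways were read from 8 lists (126 genes, 125 tested). The lists were written from general knowledge with earlier results of these data known, so their shares called are not independent support. For SM2 over NC 26 rose and 26 fell, for SM4 over NC 21 rose and 38 fell, and for SM4 over SM2 12 rose and 19 fell, which is 41.6%, 47.2% and 24.8% of them beside 22.3%, 21.2% and 12.8% of all tested genes. Among all genes with a mean of at least 10 CPM the shares were higher, at 32.4%, 31.1% and 19.9%. The list genes were not matched to other genes by level, which holds for each list read below.

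Among 15 further AP-1 and bZIP genes, 2 rose and 4 fell in SM2 against NC and 1 rose and 4 fell in SM4 against NC, with median log2 fold changes of -0.08 and -0.04. That was 40% and 33.3% called, beside 22.3% and 21.2% of all tested genes. JDP2, a repressive partner of JUN proteins, was at 41.4, 45.2 and 42.3 CPM in NC, 54.0, 51.6 and 58.0 in SM2 and 65.9, 69.7 and 74.0 in SM4. These were 3 separate levels in the reverse order of JUN (log2 fold change 0.35 in SM2, adjusted p = 0.000165, and 0.70 in SM4, adjusted p = 1.51e-08). CREB5, a bZIP factor that can pair with JUN, was at 4.47 to 4.93 CPM in NC, 4.28 to 4.90 in SM2 and 1.85 to 2.13 in SM4, a fall of 1.26 in SM4 against NC (adjusted p = 4.09e-07). BATF2 was lower in SM2 against NC (-0.42, adjusted p = 0.000996) and not called in SM4 (0.08, adjusted p = 0.542).

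Of 22 upstream MAPK and SRF pathway genes, 2 rose and 4 fell in SM2 against NC, and 1 rose and 4 fell in SM4 (medians -0.04 and -0.009). These shares, 27.3% and 22.7%, were near the 22.3% and 21.2% of all tested genes. The genes named next had the largest changes and do not stand for the list. MAPK8, which encodes the JUN kinase JNK1, was at 71.0 to 77.2 CPM in NC, 59.3 to 64.8 in SM2 and 53.4 to 56.7 in SM4, a log2 fold change of -0.25 for SM2 (adjusted p = 0.0012) and -0.43 for SM4 (adjusted p = 2.57e-06). MAP2K1, the ERK kinase MEK1, fell by 0.30 in SM2 (adjusted p = 6.89e-05) and by 0.16 in SM4 (adjusted p = 0.0186). MAP2K4, which activates JNK, fell by 0.22 in SM2 (adjusted p = 0.00497) and had a value of 0.05 in SM4 (adjusted p = 0.597).

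Of 15 feedback inhibitors of growth factor signalling, 2 rose and 3 fell in SM2 against NC and 1 rose and 8 fell in SM4 (medians -0.08 and -0.14). That was 33.3% and 60% called, beside 22.3% and 21.2% of all tested genes. ERRFI1, an inhibitor of EGF receptors, behaved like DUSP5 in its group order, at 568.0 to 578.6 CPM in NC, 688.3 to 709.8 in SM2 and 539.7 to 585.9 in SM4 (0.29 in SM2, adjusted p = 1.53e-05). DUSP3 fell by 0.44 in SM2 (adjusted p = 1.88e-07) and by 0.14 in SM4 (adjusted p = 0.0237), and DUSP8, a JNK and p38 phosphatase, fell by 0.78 in SM4 (adjusted p = 0.00018) from 4.43 to 5.61 CPM in NC to 2.58 to 3.20.

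Of the 25 tested genes among other growth factor responses, 3 rose and 9 fell in SM2 against NC, and 4 rose and 12 fell in SM4 (medians -0.10 and -0.14). That was 48% and 64% called, beside 22.3% and 21.2% of all tested genes. CXCL8, the chemokine interleukin-8, was at 193.8, 193.3 and 178.3 CPM in NC, 114.0, 109.6 and 125.4 in SM2 and 81.7, 87.7 and 77.2 in SM4. Its log2 fold change was -0.70 for SM2 over NC (adjusted p = 1.47e-08) and -1.20 for SM4 over NC (adjusted p = 4.16e-12). CCN1, a matricellular target of SRF and YAP signalling, fell by 0.37 (adjusted p = 5.89e-06) and 0.84 (adjusted p = 5.39e-11). IL6, by contrast, was lowest in SM2, at 1.60, 1.04 and 1.38 CPM against 4.77, 4.62 and 4.84 in NC and 2.76, 2.96 and 2.77 in SM4. Its log2 fold change was -1.82 for SM2 (adjusted p = 3.82e-08) and -0.74 for SM4 over NC (adjusted p = 0.00061).

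Among 14 relatives of the KLF, ZFP36, BTG and GADD45 members, 4 rose and 1 fell in SM2 against NC and 2 rose and 2 fell in SM4 (medians 0.05 and 0.06). That was 35.7% and 28.6% called, beside 22.3% and 21.2% of all tested genes. ZFP36L2, an mRNA-decay factor related to ZFP36, was at 59.5, 59.5 and 61.2 CPM in NC, 83.5, 80.4 and 76.2 in SM2 and 80.4, 81.2 and 75.0 in SM4 (0.41 and 0.39, adjusted p = 3.39e-06 and 5.45e-06). KLF9 rose by 0.39 and 0.42 (adjusted p = 0.0121 and 0.00722), and BTG1 by 0.22 in SM2 (adjusted p = 0.00708).

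Of 12 integrated stress response genes, the pathway of ATF3 and PPP1R15A, 9 rose and 0 fell in SM2 against NC, and 7 rose and 0 fell in SM4, with medians of 0.42 and 0.34. That was 75% and 58.3% called, beside 22.3% and 21.2% of all tested genes. SESN2, a stress-induced inhibitor of mTOR signalling, was at 12.7, 12.2 and 12.3 CPM in NC, 19.3, 20.05 and 16.9 in SM2 and 21.9, 21.9 and 22.8 in SM4 (0.60, adjusted p = 4.88e-06, and 0.84, adjusted p = 3.36e-08). CHAC1, which degrades glutathione, rose by 0.66 and 0.62 (adjusted p = 1.55e-05 and 2.72e-05). VLDLR, a lipoprotein receptor, rose in SM2, at 10.9 to 11.0 CPM against 4.66 to 4.97 in NC (1.17, adjusted p = 1.24e-08), and missed the threshold in SM4 (0.26, adjusted p = 0.0563).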

How the data were processed

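RNA sequencing counts of 9 libraries from OVCAR5 cells were analysed. The authors deposited raw counts per gene, without normalization. Per the submitters' processing notes and the methods, reads were handled with fastp, HISAT2 and featureCounts of Subread on build hg38 (GRCh38), versions, annotation and strand setting not given in the sources used here. Labels name a stranded mRNA kit with paired reads and the methods another kit with single reads, so which layout gave these counts is not known. No column of the table was left unused (0 columns), and it held no row without a gene.

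Of 60649 identifiers, 60507 matched GENCODE 44 without version. Counts were tested with edgeR 4.0.16 (R 4.3.3, limma 3.58.1): TMM normalization, filterByExpr (19674 kept), glmQLFit and glmQLFTest with group as the only term over all 9 libraries (6 residual degrees of freedom), two-sided, adjusted by Benjamini-Hochberg over all tested genes and called at 0.05. SE is the size of the log2 fold change over the square root of the quasi-likelihood F. CPM values are scaled by TMM to the counts of tested genes; totals were 44103272 to 63693728 counts per library, and floors use those totals. CPM per kb divides by the summed exon length. On simulated counts the test was checked with known changes. A count of 0 allows up to 3 counts; floors cover counting error only. Nothing says that replicates came from separate cultures, so p-values measure the spread between these libraries, which may be technical.

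Groups came from library titles. Named genes were all 31 members, METTL3, and per pathway list at most 3 called genes with the largest change and a mean of at least 1 CPM. CArG and the other motifs were searched in RefSeq promoter windows. The members and lists were chosen with earlier results of these data known. Alternatives were DESeq2 1.42.0 and its size factors, upper-quartile scaling, no filter, a mean of at least 1 CPM, removal of length and GC trends, a replicate block, only the 6 libraries compared, a threshold of 0.01, and each library left out.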

Additional observations from a re-analysis of the deposited data

Results flagged for a closer look

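For 9 members the fitted values of SM2 and SM4 against the NC libraries they share had opposite signs. The difference between them, SM4 against SM2, passed the edgeR test. No member was called against NC in opposite directions, so opposite effects against NC were not shown. Some of the values against NC were near 0, such as 0.02 for MYC in SM2 (adjusted p = 0.815) and -0.07 for EGR1 in SM4 (adjusted p = 0.598). The log2 fold changes in SM4 against SM2 were -0.39 for EGR1, -0.27 for KLF4, -0.19 for KLF6, -0.18 for MYC and -0.23 for IER3. For DUSP1 the value was -0.56, for DUSP5 -0.38 and for NR4A1 -0.53. DUSP6 was the member with the opposite sign, at 0.28. The calls of KLF6 and NR4A1 were lost without SM4 replicate 3 (adjusted p 0.0525 and 0.0741) and that of MYC without SM4 replicate 1 (0.115).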

How the results depend on the processing

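Of 36 calls among the members, 19 held in all 19 alternatives, and 0 of the 36 changed sign. Removing trends with gene length and GC content left 7 members higher in SM2 against NC and medians of 0.077 there and -0.066 in SM4 against NC, or 0.076 and -0.067 with the replicate block as well. At an adjusted p below 0.01, 6 members were higher in SM2 against NC, 2 lower in SM4 against NC, 7 lower in SM4 against SM2 and 20 pathway genes were called there. Members higher in SM4 against SM2 numbered 2 under upper-quartile scaling and with a mean of at least 1 CPM, and 3 in DESeq2, with the replicate block, with length and GC trends removed and with both. The cause was not tested.

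Leaving out 1 library gave 8 to 10 members higher and 1 to 3 lower in SM2 against NC (median 0.107 to 0.149), 2 to 7 lower in SM4 against NC, and 1 to 2 higher and 7 to 12 lower in SM4 against SM2 (median -0.196 to -0.137), with 20 to 33 pathway genes called there. The lowest count of 2 in SM4 against NC came without SM4 replicate 1 and without SM4 replicate 3, that of 1 in SM2 against NC without NC replicate 2, and that of 7 in SM4 against SM2 without SM4 replicate 3. The share of all tested genes called can move with the setting too, in SM4 against NC from 21.2% to 25.9% without SM2 replicate 3. A changed count is therefore not by itself a change particular to the members. Replicate numbers did not pair the libraries (correlations of same-numbered deviations -0.053 to 0.0453); with a replicate block, 11 members were higher and 3 lower in SM2 against NC, 3 and 7 in SM4 against NC, and 3 and 12 in SM4 against SM2.

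Signs turned 46 times, in 18 results of uncalled members, with sizes up to 0.223. With length and GC trends removed, and with the replicate block as well, these were IER3 in SM2 against NC (-0.012 and -0.012), ZFP36 there (-0.066 and -0.068), SRF (-0.00064 and -0.0011) and GADD45B (-0.021 and -0.021) in SM4 against NC, FOSL1 (0.018 and 0.019) and ZFP36 (0.00015 and 0.00088) in SM4 against SM2, and IER2 in SM4 against NC without the block (-0.00081). JUNB in SM4 against NC was 0.015 under upper-quartile scaling, 0.00072 with no filter and 0.0037 with a mean of at least 1 CPM, and NR4A2 there was -0.00094 with the replicate block and -0.0011 with only the 6 libraries compared. Leaving out 1 library, the ranges that crossed 0 in SM2 against NC were -0.071 to 0.055 for ZFP36, -0.12 to 0.032 for IER5, -0.53 to 0.0077 for EGR2 and -0.39 to 0.017 for FOSB. In SM4 against NC they were -0.026 to 0.054 for NR4A2, -0.26 to 0.058 for NR4A1, -0.034 to 0.058 for JUNB, -0.20 to 0.28 for FOSB, -0.061 to 0.054 for GADD45B and -0.059 to 0.0062 for ZFP36. In SM4 against SM2 they were -0.035 to 0.032 for FOSL1, -0.080 to 0.049 for ZFP36, -0.96 to 0.22 for EGR2, -0.022 to 0.099 for KLF2 and -0.034 to 0.46 for FOSB. Depth limits the 5 members below 1 CPM, whose groups rest on few counts.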

Other observations

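Heat-shock and handling-stress genes and p53 targets were read beside the members. Of 10 heat-shock genes, 1 rose and 4 fell in SM2 against NC, and 1 rose and 5 fell in SM4 against NC (medians -0.05 and -0.17). That was 50% and 60% called, beside 22.3% and 21.2% of all tested genes. HSPB1, a small chaperone, rose from 187.5, 205.0 and 221.2 CPM in NC to 271.1, 270.6 and 309.4 in SM2 (by 0.47 on the log2 scale, adjusted p = 7.36e-06), and was at 237.0, 258.3 and 262.8 in SM4 (0.30, adjusted p = 0.000868). HSPD1, a mitochondrial chaperonin, fell by 0.13 (adjusted p = 0.0193) and 0.30 (adjusted p = 7.17e-06). HSPA1A, induced by heat and handling, was not called against NC (0.10 and -0.15, adjusted p = 0.289 and 0.0949) and was lower in SM4 than in SM2 (-0.25, adjusted p = 0.00963).

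Of 12 p53 targets, 3 rose and 1 fell in SM2 against NC, and 4 rose and 3 fell in SM4 (medians 0.04 and 0.10). That was 33.3% and 58.3% called, beside 22.3% and 21.2% of all tested genes. BBC3, which encodes the pro-apoptotic protein PUMA, rose by 0.64 (adjusted p = 0.000431) and 0.52 (adjusted p = 0.00265), and FDXR by 0.41 (adjusted p = 4.09e-05) and 0.31 (adjusted p = 0.00074). MDM2, the negative regulator of p53, fell by 0.24 (adjusted p = 0.00274) and 0.26 (adjusted p = 0.0014).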
